A study of Mus musculus with 17 samples.

Results

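Among 23940 noncoding RNA rows measured in the newborn mouse heart, 31 had a higher group mean at postnatal day 7 (P7) than at day 3 (P3) in both ventricles, with no rise of that order before day 3. They were chosen from the measured values. On group means of log2(FPKM + 0.1), P7 minus P3 was at least 0.8 and P3 minus P0 (the day of birth) was under 0.6, in the left ventricle (LV) and in the right ventricle (RV). The mean over the 17 libraries had to be at least 0.3 FPKM (fragments per kilobase of length, scaled to the depth of the library), and rows on the mitochondrial chromosome and in 1 stretch of chromosome 19 were left out. Of 4146 rows that met the demands on level and position, these 31 met those on change as well. All changes between ages below are therefore descriptions, and counts of test calls on them, given once at the end, support nothing.

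The samples are total RNA from ventricles of male C57Bl/6 mice, with no genetic change or treatment named in the labels. The groups are LV and RV at 3 ages: P0, when the ductus arteriosus is still open, P3, which the labels call a transition, and P7, by which time nearly all heart muscle cells are taken to be terminally differentiated. Each group holds 3 libraries that the labels call biological replicates, except RV at P7, which holds 2. The labels do not say whether an LV and an RV library come from the same animal or how many animals each holds. In whole ventricle, more cells of a type that carries an RNA and more of that RNA per cell cannot be told apart. The tables hold noncoding rows without gene names, so marker genes of heart muscle or of other cell types could not be read from them.

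Long noncoding RNAs are transcripts longer than short regulatory RNAs that carry no long open reading frame. Some act on the chromatin or transcription of nearby genes, others act at a distance or in the cytoplasm, and for many no role is known. In the days after birth the LV takes over the work of the systemic circulation, heart muscle cells leave the cell cycle, their metabolism shifts from glucose towards fatty acids, and sarcomere proteins switch from fetal to adult forms. None of the 31 rows carries a gene name, so their roles are not known here, and they are described by identifier, level and position. Identifiers that start with NONMMUT are NONCODE transcripts, and those that start with TCONS were assembled from reads.

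The label "rising only after day 3" held for part of the 31 rows. The P7 mean exceeded the P0 mean by at least 0.8 on the log2 scale in 24 rows in LV, 19 in RV and 17 in both. The P3 mean lay within 0.6 of the P0 mean in both ventricles in 17 rows. In 7 rows it was lower than the P0 mean by at least 0.6 in both, so that these rows dipped at P3 instead of staying level. At P7 4 rows in LV and 5 in RV had a mean below their P0 mean. The median P7 minus P3 change of the 31 rows was 1.31 in LV and 1.19 in RV on the log2 scale, where all 11079 tested rows had a median of -0.22 in both. Their median P3 minus P0 change was -0.22 in LV and -0.46 in RV, against -0.09 and -0.04 over all tested rows.

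The libraries differ in a way that bears on the choice. Depth, inferred from the steps in low values, ran from 13.8 to 20.5 M fragments, and RV P3 replicate 2 was the shallowest, with 49.2% of rows listed at 0. A mitochondrial row, NONMMUT071594, was at 132 to 247 FPKM in 6 libraries and at 7.93 to 25.8 FPKM in the other 11, with nothing between. The 6 libraries, called the high set here, are replicate 3 of LV P0 and RV P0 and replicates 1 and 3 of LV P3 and RV P3. The labels name no batch, and these sets were found in the data. No P7 library is in the high set, so each ventricle has 1 P3 library, replicate 2, in the same set as its P7 libraries. For many of the rows described singly, the change within the low set is given beside the change over all libraries. Its P3 value then rests on 1 library per ventricle and has no replicate error.

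**Figure D1:**
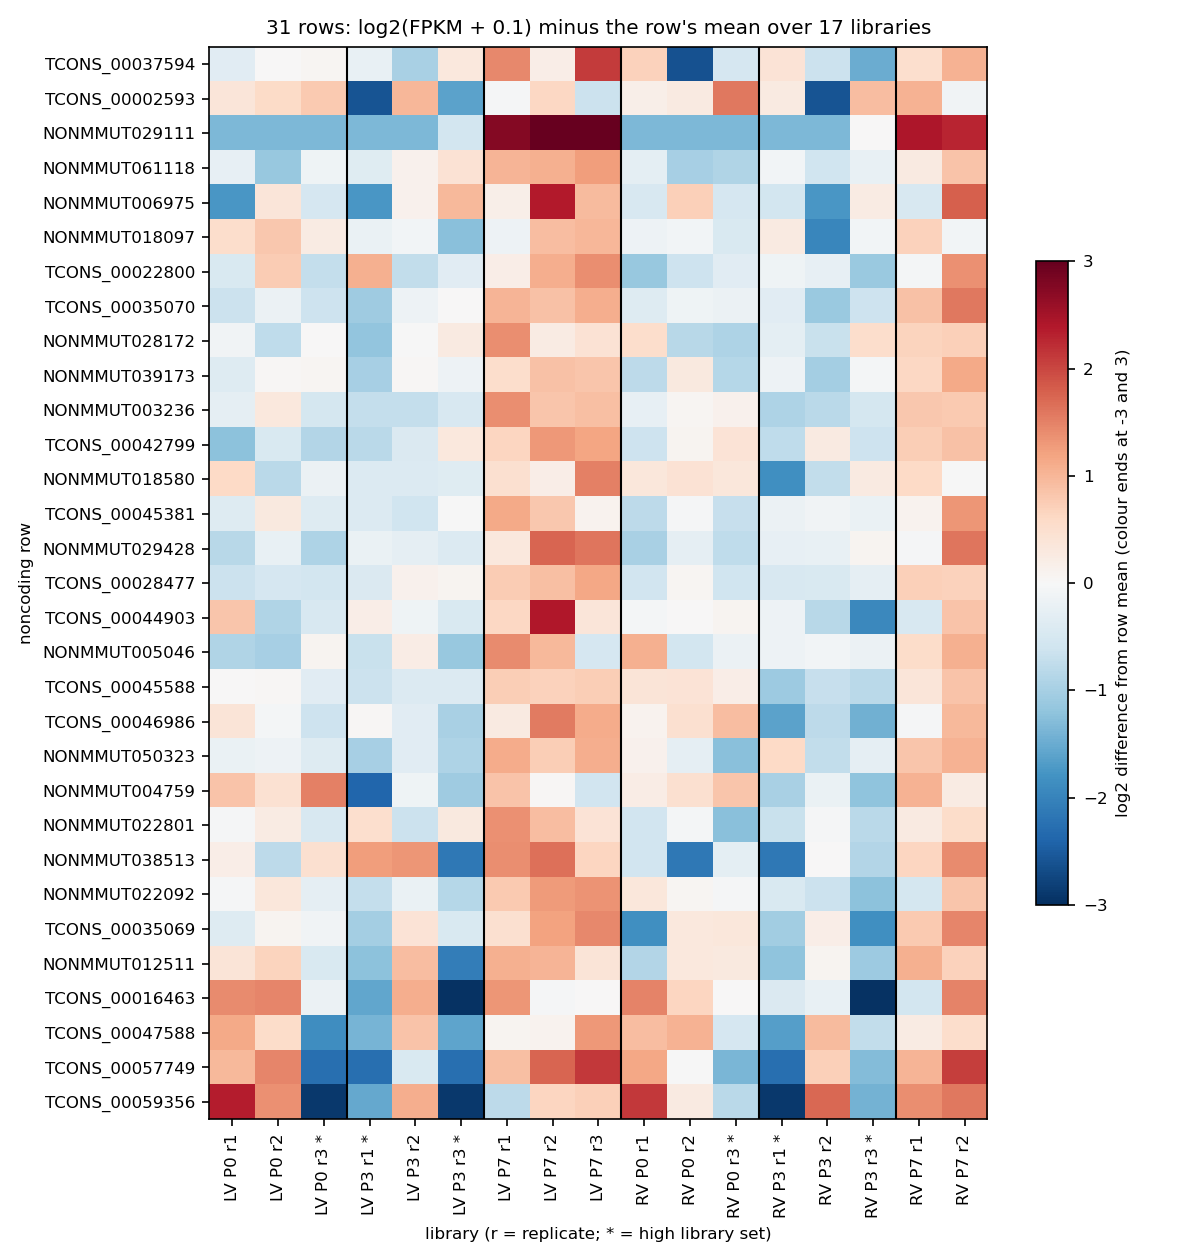
Level of each of the 31 rows (vertical axis) in each of the 17 libraries (horizontal axis, grouped by ventricle and age, an asterisk marking the high set), coloured by the log2(FPKM + 0.1) difference from the mean of the row over all libraries. Rows are ordered by the difference between the sets within groups, so the rows at the bottom are pale or blue in the asterisked libraries, while the P7 columns are red for most rows in both ventricles.

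Separation of the P7 libraries from the earlier ones varied among the rows. Every LV P7 library lay above every LV P3 library in 17 of the 31 rows, where 3.92% of all tested rows did so. Every RV P7 library lay above every RV P3 library in 21 rows, where 5.09% of tested rows did. In both ventricles at once this held for 13 rows, where 1.07% of tested rows did. Separation from P3 and P0 together was seen in 12 rows in LV (2.18% of tested rows), in 15 in RV (2.43%) and in 9 in both (0.776%). These 9 were NONMMUT003236, NONMMUT029111, NONMMUT039173, NONMMUT050323, NONMMUT061118, TCONS_00028477, TCONS_00035069, TCONS_00035070 and TCONS_00042799. Because the rule used these values, nothing is read from the excess over all rows.

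NONMMUT029111 (chr17:32044822-32046318) had the largest change. It was listed at 0 in all 6 P0 libraries. At P3 it was at 0, 0 and 0.0721 FPKM in LV and 0, 0 and 0.155 FPKM in RV, both values above 0 coming from replicate 3. At P7 it reached 1.60, 2.41 and 2.16 FPKM in LV and 1.25 and 1.14 FPKM in RV. P0 and P3 overlapped, and the row was above 1 FPKM in every P7 library and at 0 or near 0 in every earlier one. P7 minus P3 was 4.15 ± 0.36 (log2, SE) in LV and 3.24 ± 0.41 in RV. With values at 0 the size of this change depends on the constant added before taking logs. Within the low set, where P3 replicate 2 was at 0 in both ventricles, it was 4.41 and 3.69.

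The most abundant of the 9 was NONMMUT039173 (chr2:113839220-113894060). In LV it was at 3.33, 4.48 and 4.60 FPKM at P0, 2.14, 4.50 and 3.96 at P3 and 6.35, 8.15 and 7.87 at P7. In RV it was at 2.50, 5.44 and 2.39 FPKM at P0, 3.91, 2.10 and 4.18 at P3 and 6.83 and 9.82 at P7. Values at P0 and P3 overlapped, and all 5 P7 libraries lay above all 12 earlier ones. The log2 rise from P3 to P7 was 1.11 ± 0.32 (SE) in LV and 1.31 ± 0.36 in RV. At the same position 5 other rows are listed with lower means, so the position is that of a locus and not of 1 transcript. Within the low set the change was 0.71 in LV, under the 0.8 of the rule, and 1.92 in RV.

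TCONS_00028477 (chr18:35217858-35247285) was among the steadiest. LV values were 1.18, 1.33 and 1.28 FPKM at P0, 1.40, 2.11 and 2.05 at P3 and 3.32, 3.67 and 4.39 at P7. RV values were 1.25, 2.01 and 1.23 at P0, 1.35, 1.38 and 1.57 at P3 and 3.19 and 3.16 at P7. In LV the P3 libraries already lay above the P0 libraries, by 0.50 on the log2 scale, under the limit of the rule, while in RV P3 and P0 overlapped. P7 minus P3 was 1.01 ± 0.22 (log2, SE) in LV and 1.10 ± 0.25 in RV, and within the low set 0.81 and 1.15. A second row with the same position, TCONS_00028476, had a mean of 0.356 FPKM and P7 minus P3 of 0.20 in LV and 1.95 in RV, and the 2 rows can share reads.

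NONMMUT050323 (chr4:140795601-140798186) stood at 1.28, 1.34 and 1.11 FPKM in LV at P0, 0.699, 1.15 and 0.733 at P3 and 3.36, 2.55 and 3.28 at P7. In RV it stood at 1.63, 1.22 and 0.562 at P0, 2.32, 0.846 and 1.23 at P3 and 2.74 and 3.20 at P7. In LV the P0 and P3 libraries overlapped and the P7 libraries were far above both, whereas RV P3 replicate 1, at 2.32 FPKM, came close to the lower RV P7 library, at 2.74. P7 minus P3 was 1.74 ± 0.34 (log2, SE) in LV and 1.08 ± 0.38 in RV, and within the low set 1.33 and 1.69.

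NONMMUT003236 (chr1:157367347-157375060) had its lowest group means at P3. Its LV values were 0.404, 0.657 and 0.326 FPKM at P0, 0.274, 0.272 and 0.336 at P3 and 1.51, 0.982 and 1.04 at P7. Its RV values were 0.417, 0.532 and 0.568 at P0, 0.220, 0.249 and 0.326 at P3 and 0.965 and 0.950 at P7. The P3 libraries of both sets lay close together, and the rise was 1.68 ± 0.28 (log2, SE) in LV and 1.54 ± 0.32 in RV over all libraries and 1.76 and 1.60 within the low set.

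TCONS_00042799 (chr4:65713481-65720473) went from 0.616, 0.833 and 1.46 FPKM at P3 to 1.84, 2.99 and 2.75 at P7 in LV, after 0.432, 0.809 and 0.585 at P0. In RV it went from 0.633, 1.40 and 0.717 to 2.0 and 2.19, after 0.712, 1.23 and 1.55 at P0. The lowest P7 library in either ventricle was above the highest earlier one of that ventricle. Within the low set the RV change was 0.55, under the 0.8 of the rule, because RV P3 replicate 2 was the highest of the RV P3 libraries.

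NONMMUT061118 (chr7:52358205-52359165) had the smallest change of the 9 in RV. It stood at 0.447, 0.664 and 0.844 FPKM in LV at P3 and 1.32, 1.36 and 1.57 at P7, and at 0.560, 0.365 and 0.504 at P3 and 0.743 and 1.17 at P7 in RV. At P0 it was at 0.490, 0.220 and 0.546 in LV and 0.470, 0.252 and 0.277 in RV. Its mean at P3 was already above that at P0, by 0.56 in LV and 0.43 in RV on the log2 scale, and the LV change was the closest to the limit of 0.6 among all 31.

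TCONS_00035069 (chr2:77150151-77150845) and TCONS_00035070 (chr2:77150933-77155166) lie 88 bases apart and were the only members within 50 kb of another. TCONS_00035070 was at 0.128, 0.215 and 0.130 FPKM at P0, 0.0697, 0.219 and 0.256 at P3 and 0.626, 0.552 and 0.659 at P7 in LV, and at 0.171, 0.223 and 0.216 at P0, 0.179, 0.0633 and 0.131 at P3 and 0.555 and 0.958 at P7 in RV. TCONS_00035069 was at 0.175, 0.283 and 0.234 at P0, 0.0767, 0.379 and 0.161 at P3 and 0.405, 0.736 and 0.870 at P7 in LV, and at 0, 0.345 and 0.357 at P0, 0.0739, 0.313 and 0 at P3 and 0.517 and 0.886 at P7 in RV. Over all libraries the P7 minus P3 changes of the 2 rows were 1.41 and 1.40 in LV and 1.93 and 2.02 in RV. Within the low set they were less alike, 1.16 and 0.63 in LV and 2.35 and 0.92 in RV, the change of TCONS_00035069 being the smaller. Adjoining assembled rows can be pieces of 1 transcript, so they may not be separate observations. Both are low, and the values of TCONS_00035069 amount to at most 11.5 fragments in a library.

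**Figure D2:**
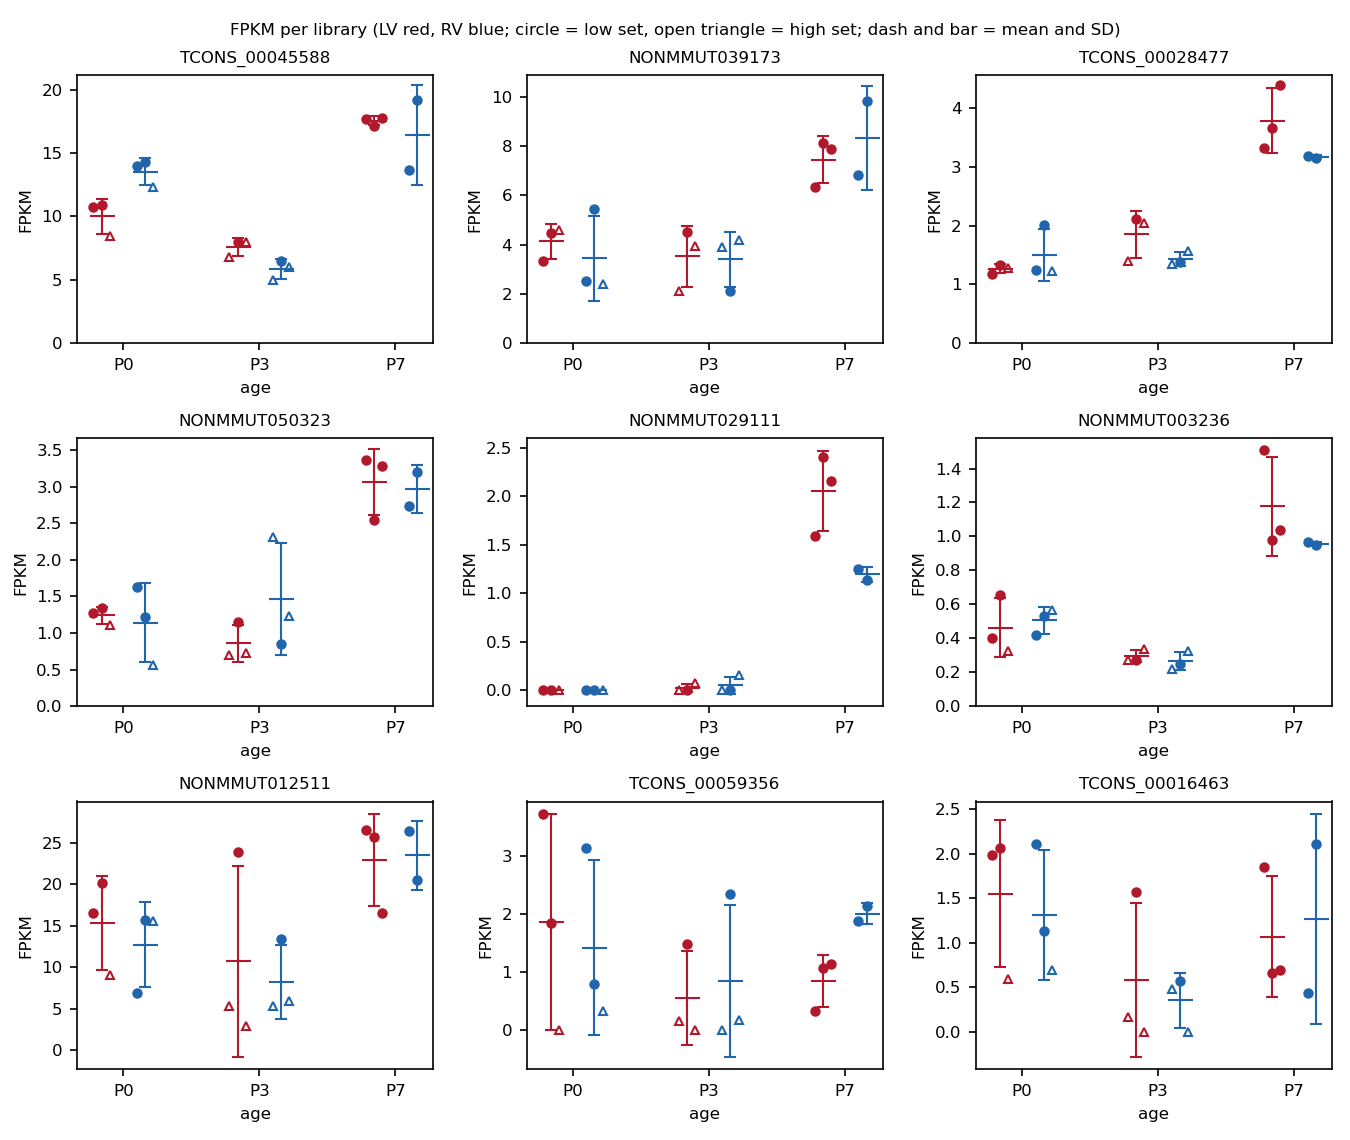
FPKM (vertical axis) of 9 rows in each library at P0, P3 and P7 (horizontal axis), with LV in red and RV in blue, filled circles for the low set, open triangles for the high set, and the mean and SD of each group as a dash and bar. In the upper 6 panels the P7 points stand above the P3 points in both ventricles, and in the lower 3 panels the LV P3 circle stands level with or above P7 points while most P3 triangles lie below them.

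Other rows had lower means at P3 than at both P0 and P7. TCONS_00045588 (chr5:122559392-122563765), an abundant row with a mean of 11.6 FPKM, showed it mainly in RV. RV values were 14.0, 14.3 and 12.3 FPKM at P0, 4.96, 6.52 and 6.03 at P3 and 13.6 and 19.2 at P7. LV values were 10.8, 10.9 and 8.42 at P0, 6.80, 8.01 and 7.98 at P3 and 17.7, 17.2 and 17.8 at P7. The 3 ages did not overlap in LV, and in RV the lower P7 library lay among the P0 libraries. P7 minus P3 was 1.20 ± 0.16 (log2, SE) in LV and 1.47 ± 0.17 in RV, the smallest errors of the 31 rows, and P7 minus P0 was 0.81 in LV and 0.26 in RV. In each ventricle the P3 library of the low set lay near those of the high set, and the low set alone gave 1.12 and 1.30.

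TCONS_00046986 (chr5:90380406-90406907) had the same course in RV, where it went from 0.904, 1.21 and 1.67 FPKM at P0 to 0.207, 0.439 and 0.242 at P3 and 0.818 and 1.73 at P7. P7 in RV ended -0.03 from P0 on the log2 scale, so the P7 and P0 means were close there. In LV it was at 1.11, 0.794 and 0.511 at P0, 0.859, 0.638 and 0.375 at P3 and 1.02, 2.67 and 1.92 at P7, above P0 by 1.08, though LV P7 replicate 1 was below LV P0 replicate 1. NONMMUT004759, which has no position in the tables, had the lowest P3 minus P0 change in LV, from 3.03, 2.25 and 4.77 FPKM at P0 to 0.229, 1.47 and 0.719 at P3, and stood at 3.02, 1.68 and 1.06 at P7. In RV it was at 1.92, 2.32 and 2.96 at P0, 0.771, 1.40 and 0.644 at P3 and 3.44 and 1.95 at P7. It did not regain its P0 level in LV, where P7 minus P0 was -0.83, and in the low set its LV rise from P3 was 0.24 against 1.31 over all libraries.

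TCONS_00002593 (chr1:66970869-66971597) was also highest at P0, at 0.672, 0.792 and 0.936 FPKM in LV and 0.580, 0.621 and 1.71 in RV. At P3 its replicates disagreed, at 0, 1.09 and 0.0963 in LV and 0.619, 0 and 1.04 in RV, and at P7 it was at 0.485, 0.830 and 0.284 in LV and 1.14 and 0.462 in RV. In each ventricle 1 P3 library was at 0, and no group was separate from another. The low set gave a P7 minus P3 change of -1.01 in LV and 3.06 in RV, so the ventricles did not agree there.

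A further group of rows followed the library sets. NONMMUT012511 (chr11:108872954-108873432), the most abundant of all 31 with a mean of 15.1 FPKM, was at 16.5, 20.2 and 9.11 FPKM in LV at P0, 5.31, 23.9 and 2.90 at P3 and 26.5, 25.7 and 16.6 at P7. In RV it was at 6.85, 15.7 and 15.6 at P0, 5.38, 13.4 and 5.89 at P3 and 26.4 and 20.5 at P7. In LV its P3 libraries of the high set were low and the P3 library of the low set was as high as the P7 libraries. In RV at P0 it did not follow the sets, the high set library at 15.6 lying beside the low set library at 15.7 and above that at 6.85. Over all libraries P7 minus P3 was 1.62 in LV and 1.62 in RV, and within the low set it was -0.09 and 0.79.

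Several short assembled rows moved with the sets more strongly than NONMMUT012511. TCONS_00059356 (chr8:124176459-124176798) was at 3.72, 1.83 and 0 FPKM at P0, 0.157, 1.47 and 0 at P3 and 0.331, 1.06 and 1.13 at P7 in LV, and at 3.13, 0.794 and 0.324 at P0, 0, 2.35 and 0.177 at P3 and 1.87 and 2.13 at P7 in RV. Its high set libraries were at most 0.324 FPKM at every age, and its low set libraries were never below 0.331. Its P7 minus P3 change of 1.31 in LV and 2.36 in RV became -0.89 and -0.22 within the low set. TCONS_00016463 (chr13:69673203-69673520) was at 0.168, 1.58 and 0 at P3 and 1.86, 0.663 and 0.691 at P7 in LV, and at 0.484, 0.570 and 0 at P3 and 0.435 and 2.11 at P7 in RV, after 1.99, 2.06 and 0.597 in LV and 2.11, 1.13 and 0.693 in RV at P0. Its change of 1.57 in LV and 1.68 in RV became -0.66 and 0.70 within the low set.

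TCONS_00047588 (chr5:124804101-124805135) was at 0.257, 1.61 and 0.216 FPKM in LV at P3 and 0.896, 0.902 and 2.23 at P7, and at 0.198, 1.72 and 0.464 at P3 and 1.02 and 1.24 at P7 in RV. Its change of 1.20 in LV and 0.86 in RV was negative within the low set, -0.36 and -0.57. TCONS_00057749 (chr8:119780524-119780845) also followed the sets. Its change of 3.24 in LV and 2.49 in RV was smaller within the low set, 2.05 and 0.84, and still above 0.8. It was at 0, 0.246 and 0 at P3 and 0.786, 1.5 and 1.96 at P7 in LV, and at 0, 0.676 and 0.0933 at P3 and 0.859 and 1.91 at P7 in RV. Of these short assembled rows, 3 rest on few fragments, from 0 to 26 per library for TCONS_00059356, 0 to 13 for TCONS_00016463 and 0 to 11.5 for TCONS_00057749. TCONS_00047588 had more, from 3 to 42, and was above 0 in all 17 libraries.

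Over all 31 rows, the high set minus low set difference within groups of the same age and ventricle had a median of -0.14 on the log2 scale and was below 0 in 71.0% of rows. Among the 4115 other rows of at least 0.3 FPKM the median was 0.14 and 31.4% were below 0. In 75 rows with a higher mean at P3 than at P0 and a level one after, chosen by the mirrored rule, the median was 0.05 and 46.7% were below 0. The lowest differences were -3.49 for TCONS_00059356, -2.42 for TCONS_00057749, -2.17 for TCONS_00047588, -1.87 for TCONS_00016463 and -1.06 for NONMMUT012511. P3 replicate 2 was the highest P3 library in 16 of the 31 rows in LV, where this held for 16.9% of tested rows, and in 14 in RV, where it held for 25.6%. The rule compares P7, all low set, with P3, mostly high set, so these values are not independent of it.

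Within the low set, P7 minus P3 stayed above 0 in both ventricles in 25 of the 31 rows. It was at least 0.8 in 19 rows in LV, 24 in RV and 16 in both, and below 0 in 6 in LV and 2 in RV. The median was 1.12 in LV and 1.02 in RV, where all tested rows had medians of 0.00 and -0.05. The whole rule, applied to the low set alone, took 66 rows, and 12 of the 31 were among them. These 12 were NONMMUT003236, NONMMUT018580, NONMMUT029111, NONMMUT029428, NONMMUT050323, TCONS_00035070, TCONS_00037594, TCONS_00044903, TCONS_00045381, TCONS_00045588, TCONS_00046986 and TCONS_00057749. Both sets occur at P0 and at P3, so the set could also be fitted as a term, taken as equal at every age. In that fit P7 minus P3 was above 0 in 29 of the 31 rows in LV and 30 in RV. It was at least 0.8 in 27 and 26. No P7 library is in the high set, so a set difference at P7 could not be estimated. The low set values and this fit both reuse libraries on which the rule chose the rows, so neither is independent of it.

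**Figure D3:**
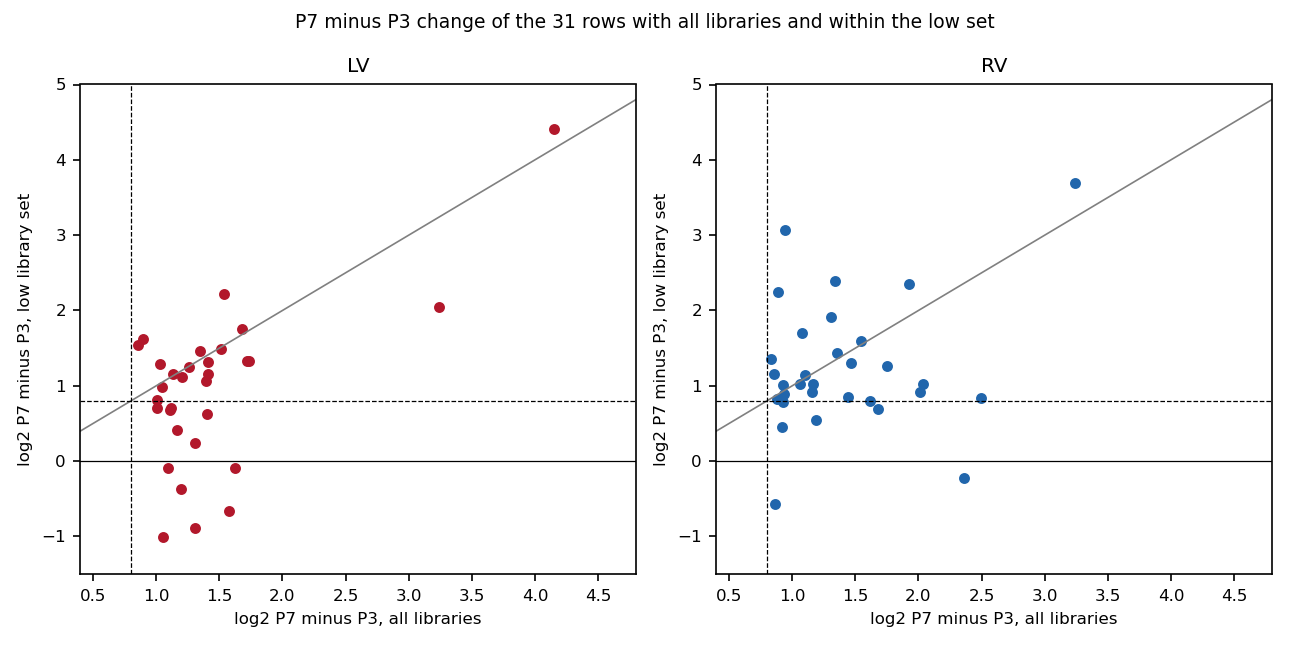
P7 minus P3 change of the 31 rows on the log2 scale within the low set (vertical axis) against the change over all libraries (horizontal axis), for LV (left) and RV (right), with the 0.8 limit dashed and equality in grey. In LV 6 points and in RV 2 points lie below 0 on the vertical axis, and the highest point in each panel is NONMMUT029111.

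The 13 rows not yet described were low, with means over all libraries of 0.302 to 0.903 FPKM, and 6 of them were listed at 0 in at least 1 library. Their group means ran from 0.150 to 0.650 FPKM at P3 and 0.515 to 1.99 at P7 in LV, and from 0.119 to 0.654 and 0.350 to 1.56 in RV. The P7 libraries lay above all P3 libraries in 5 of these rows in LV and in 7 in RV. Over all tested rows 3.92% and 5.09% did so. Only TCONS_00045381 did so in both, where 1.07% of tested rows did. In the other 12 the P7 and P3 libraries overlapped in at least 1 ventricle. Within the low set 7 of the 13 rose by at least 0.8 in both ventricles. The rule chose on these values, so nothing is read from these counts.

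NONMMUT029428 (chr17:35378745-35566992) was the highest of these. It was at 0.610, 0.581 and 0.517 FPKM in LV at P3 and 0.916, 2.65 and 2.4 at P7, and at 0.588, 0.607 and 0.767 at P3 and 0.707 and 2.41 at P7 in RV. Replicate 1 was the low P7 library in both ventricles, and in RV it overlapped the P3 libraries. TCONS_00037594 (chr3:90313661-90313914), a row of 254 bases, was at 0.420, 0.208 and 0.660 at P3 and 1.55, 0.593 and 2.49 at P7 in LV, and at 0.707, 0.286 and 0.118 at P3 and 0.762 and 1.16 at P7 in RV, at most 11.5 fragments in a library. NONMMUT022092, without a position, was at 0.125, 0.222 and 0.104 at P3 and 0.539, 0.788 and 0.835 at P7 in LV and at 0.168, 0.136 and 0.0562 at P3 and 0.155 and 0.551 at P7 in RV, separated in LV only.

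TCONS_00044903 (chr5:76412428-76413424) had 1 LV P7 library well above the others, with 0.488, 1.90 and 0.390 FPKM at P7 after 0.336, 0.250 and 0.176 at P3, and was at 0.243, 0.114 and 0 at P3 and 0.175 and 0.591 at P7 in RV. NONMMUT006975, without a position, was at 0, 0.262 and 0.556 at P3 and 0.280, 1.65 and 0.547 at P7 in LV, and at 0.128, 0 and 0.299 at P3 and 0.138 and 1.07 at P7 in RV, overlapping in both. The remaining 8 were NONMMUT005046 (chr10:24357723-24358621), NONMMUT018097 (chr13:67108190-67109094), NONMMUT018580 (chr13:89879065-90026771), NONMMUT022801 (chr15:12387901-12479987), TCONS_00022800 (chr16:77500276-77691955), TCONS_00045381 (chr5:112234747-112236249), and NONMMUT028172 and NONMMUT038513 without a position. The identifier NONMMUT018580 stands in 2 rows of 1 position, and the other row has a mean of 0.0368 FPKM and is no member.

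The next question is whether the ventricles agree, for which the rule left RV minus LV at a given age unused. No member was called between the ventricles by limma, a linear model with moderated errors fitted over all 11079 tested rows, at a Benjamini-Hochberg adjusted p under 0.05. This was so at P0 (0% of tested rows called), at P3 (0.00903%), at P7 (0.00903%) and over the 3 ages (0.00903%). At an unadjusted p under 0.05 there were 2 members at P0, 2 at P3, 1 at P7 and 1 over the ages, where 587, 651, 495 and 765 tested rows reached it. With so few rows called in the whole table, the count for the members does not set them apart.

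The members with an unadjusted p under 0.05 were these. At P0 RV minus LV was 0.43 ± 0.16 for TCONS_00045588 (log2, SE, limma adjusted p = 0.885) and 0.81 ± 0.35 for TCONS_00042799 (adjusted p = 0.919). At P3 RV minus LV was -0.38 ± 0.16 for TCONS_00045588 (limma adjusted p = 0.792) and -0.86 ± 0.39 for TCONS_00046986 (adjusted p = 0.815). At P7 it was -0.99 ± 0.41 for NONMMUT022092 (limma adjusted p = 1), and over the ages -0.52 ± 0.23 for NONMMUT022801 (adjusted p = 0.679). For TCONS_00045588 the 3 RV libraries at P0 lay above the 3 LV libraries and at P3 below them, while at P7 the 2 RV libraries spanned the LV values.

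The limits on a difference at P7 varied with the spread of the row. The 95% interval of RV minus LV was -0.48 to 0.25 for TCONS_00045588, -0.75 to 0.27 for TCONS_00028477 and -0.60 to 0.89 for NONMMUT039173. It was -1.57 to 0.13 for NONMMUT029111, whose RV libraries both lay below its LV libraries, and -2.16 to 4.76 for TCONS_00059356. Thus a difference of 1 on the log2 scale lay outside the interval for the first 3 and not for TCONS_00059356. At P7 the RV mean was lower than the LV mean in 20 of the 31 rows, with a median of -0.20, where tested rows had a median of 0.00 and 48.7% were lower.

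Across the 31 rows the P7 levels of the ventricles had a Pearson r of 0.95 (log2 scale). The P7 minus P3 changes had an r of 0.74 and a Spearman rho of 0.57, and r was 0.55 without NONMMUT029111. The P3 minus P0 changes had an r of 0.66. These values describe rows that were chosen to rise in both ventricles, with P3 replicates of both ventricles sharing a library set, and rows are not replicates. The change differed by less than 0.5 between ventricles in 22 rows, with a median gap of 0.19. The largest gap was 1.05, for TCONS_00059356, which changed by 1.31 in LV and 2.36 in RV, or by -0.89 and -0.22 within the low set. NONMMUT038513 followed with 1.09 and 2.03, which within the low set were -0.09 and 1.02, and NONMMUT029111 with 4.15 and 3.24.

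**Figure D4:**
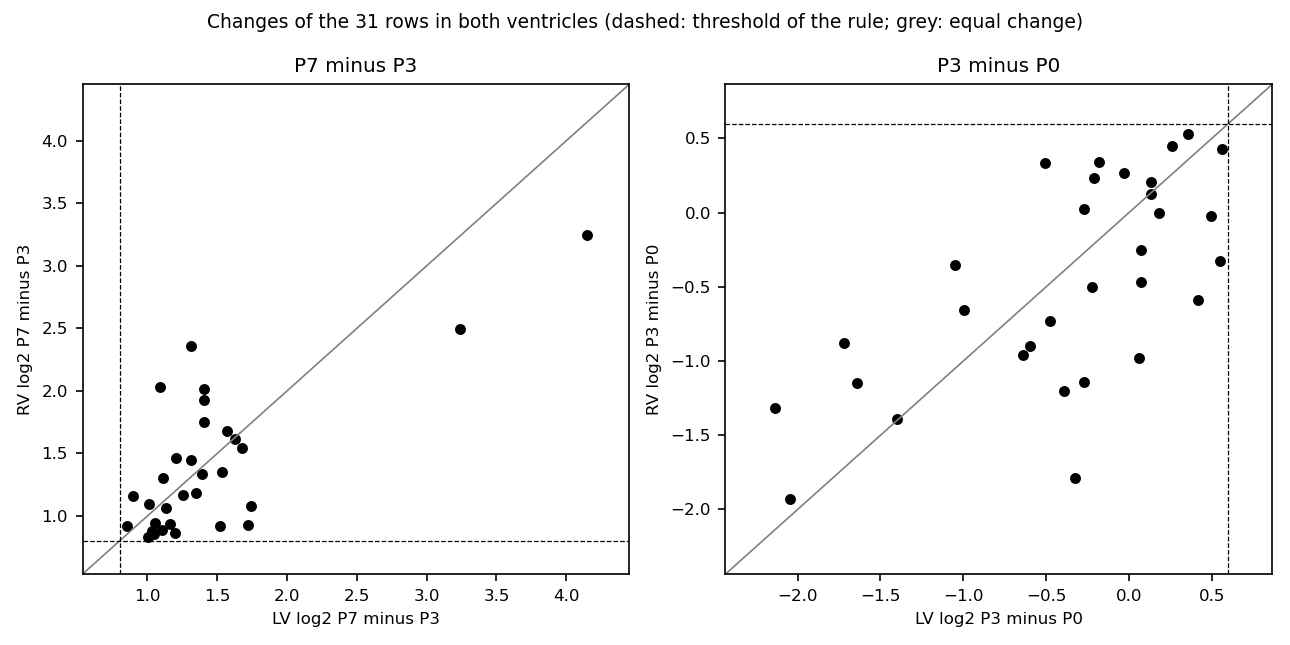
Change of each of the 31 rows in RV (vertical axis) against LV (horizontal axis) on the log2 scale, for P7 minus P3 (left) and P3 minus P0 (right), with the limits of the rule dashed and equal change in grey. On the left most points crowd between 0.8 and 2 in both ventricles. NONMMUT029111 stands furthest to the upper right, and TCONS_00057749, at 3.24 in LV and 2.49 in RV, is next. On the right the points reach down to -2.14 in LV and -1.93 in RV.

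Positions in the tables are taken to be on the mouse build mm9. The 26 members with a position lay on 14 chromosomes, 5 of them on chromosome 5 and 3 each on chromosomes 2 and 13. For 13 members another row with a mean of at least 0.3 FPKM lay within 50 kb. The median P7 minus P3 change of the nearest such row was -0.01 in LV and -0.04 in RV. Over all tested rows the median was -0.22 in both. The nearest row changed by at least 0.8 in both ventricles in 2 cases, which are TCONS_00035069 and TCONS_00035070 as neighbours of each other. It was below 0 in both in 5 cases and above 0 in both in 4, the pair included. Beside TCONS_00059356, at 582 bases, lay TCONS_00057805, which had a mean of 0.370 FPKM and changed by 0.20 in LV and 1.06 in RV. Beside TCONS_00045588, at 9959 bases, lay TCONS_00045586, which had a mean of 6.08 FPKM and changed by -0.50 in LV and -0.04 in RV. Beside NONMMUT050323, at 29386 bases, lay NONMMUT050315, with a mean of 17.2 FPKM and changes of 0.15 and -0.35. Thus 11 of the 13 nearest rows did not show a rise of at least 0.8 in both ventricles. Such a rise was rare among the 4146 rows that met the demands on level and position. Only the 31 members and 31 rows over the limit on P3 minus P0 had it. The count for the nearest rows therefore does not set these neighbourhoods apart.

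Coding genes near the members were placed without converting positions. Rows whose span equals that of an annotated GENCODE M21 transcript, with other matches nearby that share its shift, were taken as named landmarks, 3566 in all, and 11 members lay between 2 landmarks of equal shift with at most 12 RefSeq coding genes between them. Expression of these coding genes was not analysed here. TCONS_00045588 lay between landmarks named Cux2, 192649 bases below, and Gm42748, 51841 bases above, and the coding genes there are Myl2, the ventricular regulatory light chain of myosin, and Ccdc63. TCONS_00002593 lay between Gm38218 and Lancl1, with Acadl, an enzyme of fatty acid oxidation, and Myl1, a myosin light chain, between them. NONMMUT018580 lay between Edil3 and Gm29680, a stretch with Hapln1 and Vcan, a link protein and a proteoglycan of the extracellular matrix, and Xrcc4 and Tmem167.

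TCONS_00037594 lay 50586 bases below a landmark named S100a3, in a stretch of 10 coding genes. These are Slc27a3, Ints3, Npr1 (the receptor for atrial natriuretic peptide), Ilf2, Snapin, Chtop, S100a1 (a calcium-binding protein of heart muscle), S100a13, S100a14 and S100a16. TCONS_00028477 lay between Kdm3b and Gm36989. The coding genes there are Reep2, Egr1 (an immediate early transcription factor), Etf1, Hspa9 (a mitochondrial chaperone), Gm46617, Ctnna1 (alpha-catenin), Lrrtm2 and Sil1. NONMMUT050323 lay in a stretch of 11 coding genes. These are Sdhb (a subunit of succinate dehydrogenase), Atp13a2, Mfap2, Crocc, Necap2, Spata21, Szrd1, Fbxo42, Cplane2, Arhgef19 and Epha2 (an ephrin receptor). TCONS_00046986 lay between Dck and Ankrd17, with Slc4a4, a bicarbonate transporter, Gc, Npffr2, Adamts3 and Cox18 between them. TCONS_00059356 lay in a stretch of 7, which are Fbxo31, Map1lc3b (an autophagy protein), Zcchc14, Jph3 (a junctophilin), Klhdc4, Gm42048 and Slc7a5 (an amino acid transporter).

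TCONS_00016463 lay in a stretch with Srd5a1, Nsun2, Med10 and 4 others, TCONS_00045381 in one with the crystallin genes Cryba4 and Crybb1, Tpst2, Tfip11 and 2 others, and TCONS_00022800 in one without a RefSeq coding gene. For the other 15 members with a position, the coding genes between landmarks are not listed here. The pair TCONS_00035069 and TCONS_00035070 was not placed, because the landmarks on its 2 sides did not share a shift and had 292 coding genes between them. The nearer landmark was a transcript of Ttn, the gene of titin, 329547 bases below. NONMMUT029428 began 3033 bases above a landmark named Atp6v1g2, a subunit of the vacuolar proton pump. The landmarks name neighbourhoods, and no relation between a member and a gene there was tested.

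The 26 members with a position spanned 254 to 191680 bases with a median of 1500. Among the 4115 other rows of at least 0.3 FPKM, the 3731 with a position had a median of 2233. Assembled rows made up 48.4% of the members, 26.5% of those other rows and 49.3% of the 75 rows of the mirrored rule. Members sharing their position with another row numbered 4, or 12.9%, against 19.9% of the other rows. The median over members of the mean over 17 libraries was 0.668 FPKM, against 0.705 for the other rows. This mean was at 1 FPKM or more in 11 members and at 3 or more in 3. These 3 were NONMMUT012511, TCONS_00045588 and NONMMUT039173. Altogether 19 members were above 0 in all 17 libraries.

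Rows close to the limits show how the choice was made. By the smaller of the P7 minus P3 changes, the members just inside were NONMMUT028172 at 0.83, NONMMUT022801 at 0.86 and NONMMUT061118 at 0.86. The rows just outside were TCONS_00055981 at 0.77, NONMMUT008616 at 0.74 and TCONS_00047879 at 0.73. By the larger of the P3 minus P0 changes, NONMMUT061118 at 0.56, TCONS_00042799 at 0.55 and NONMMUT029428 at 0.53 were inside, and NONMMUT054398 at 0.61, TCONS_00020061 at 0.62 and NONMMUT030018 at 0.66 were outside. By mean level, TCONS_00045381 at 0.302 FPKM, NONMMUT018580 at 0.305 and TCONS_00035070 at 0.315 were inside, and TCONS_00059340 at 0.290, TCONS_00064784 at 0.288 and TCONS_00021667 at 0.280 were outside. The steps between inside and outside are small beside the errors of the changes given above, so the edge of the list is not sharp.

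In the fit over all tested rows, 7 of the 31 passed limma's adjusted p under 0.05 as higher at P7 than at P3 in LV (0.271% of tested rows) and 5 in RV (0.226%). Since the rule chose on the same contrast, nothing is read from these counts.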

How the data were processed

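Noncoding RNA was sequenced in 17 libraries of neonatal mouse LV and RV. Per the labels' protocols, total RNA was isolated with an RNeasy kit and made into strand-specific paired-end libraries. The submitters' processing notes name STAR 2.4.0j and mm10, and for the annotation and counting tool the notes are silent (not given in the sources used here). Each table the authors deposited holds identifiers, positions and 1 value per row. The deposited values were read as FPKM the authors computed before deposit, since 64.0% to 67.6% of low values, multiplied by the span, fall within 0.02 of whole multiples of 0.5 fragments of constant size. FPKM remains an inference. On several chromosomes positions run past the last gene annotated on mm10, and they were taken to be mm9.

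Values were used as log2(FPKM + 0.1), which understates changes of low rows. Tests used limma 3.58.1 (R 4.3.3) with group means, a variance trend and robust moderation, on the 11079 rows that reached 0.1 FPKM in 2 or more libraries, two-sided and Benjamini-Hochberg adjusted over all of them. All 31 members passed this filter. The fit was also run on simulated data drawn without library sets or pairing, so that run does not bear on either. Rows named in the text are the 12 with the highest P7 level, the 12 with the largest smaller change, pairs within 50 kb, the 3 on each side of each limit, and others chosen after their values were seen. The members and lists were chosen with earlier results of these data known. The library sets and the landmark method were chosen after seeing the data. Landmarks use GENCODE M21 and RefSeq GRCm38.p6 for names and order only. With spans 1 base longer 0 rows matched, and 24 with spans 1 base shorter. Alternatives covered the pseudocount, scaling, filter, variance model, summed positions, replicate block, each library left out, and library set.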

Additional observations from a re-analysis of the deposited data

How the results depend on the processing

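The rule took 31 rows. With a pseudocount of 1 in place of 0.1 it took 9, of which 5 were among the 31, and with 0.01 it took 46, with 26 shared. Centring libraries on their median gave 61, with 29 shared, since tested rows shifted by -0.22 from P3 to P7. The low set alone gave 66, with 12 shared, an alternative chosen after seeing the data. Summing rows of 1 position gave 29. Leaving out 1 library gave 21 to 44, the extremes coming without RV P7 replicate 2 (19 shared) and without RV P7 replicate 1 (27 shared).

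Members called from P3 to P7 in LV numbered 7, and 11 with median centring, 3 without the filter, 3 with the library set as a term, 1 in the low set, and 3 to 9 leaving out 1 library; 3 came without LV P3 replicate 1, LV P3 replicate 3 or LV P7 replicate 3, and 4 without LV P7 replicate 2. In RV they numbered 5, and 3 without the filter, 1 fitting the compared groups alone, 2 with the set as a term, 1 in the low set, and 2 to 5 leaving out 1 library, 2 coming without RV P3 replicate 2 or either RV P7 library and 3 without RV P3 replicate 1 or 3. Counts of all rows called higher in each fit moved as well. In LV there were 30, and 76 with median centring, 12 without the filter and 19 with the set as a term. There were 8 without LV P3 replicate 1 and 12 without LV P3 replicate 3. In RV there were 25, and 34 without the filter, 2 fitting the compared groups alone and 12 with the set as a term. There were 10 without RV P3 replicate 2. The cause of these moves was not tested. The sign of the change held in 30 of 31 members in each ventricle under all alternatives other than those on the library set, while 7 of 31 in each stayed at 0.8 or more, and 12 in LV and 11 in RV stayed within 1 SD.

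With the replicate block, 7 members were called in LV and 2 in RV, where 24 and 9 of all tested rows were called higher. Same-numbered LV and RV libraries had deviations correlated at 0.045 to 0.172, not all over 0.1. Each LV library with an RV library of its number correlated best with that one. At P7 the correlations were 0.083 for replicate 1 and 0.069 for replicate 2. RV P7 holds 2 libraries, whose deviations mirror each other, so the other number gave -0.083 and -0.069. Only the sign is therefore informative at P7. At P0 and P3 same-numbered libraries also share a library set. The numbers were not taken as pairs, and all errors and intervals of RV minus LV given above are unpaired. Called members between ventricles numbered 0 under each alternative run, the block included. Over all tested rows the block called 11 between ventricles at P3, 2 at P7 and 5 over the ages, against 1 each without it. Low rows rest on few fragments, and 2 RV P7 libraries limit every RV value.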
